A study of Mus musculus with 4 samples.

Results

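The HoxD cluster is the group of 9 genes Hoxd1, Hoxd3, Hoxd4, Hoxd8, Hoxd9, Hoxd10, Hoxd11, Hoxd12 and Hoxd13 on mouse chromosome 2, and Evx2 is the homeobox gene beside Hoxd13. These 10 genes, of 22380 annotated protein-coding genes, were chosen by name. Open chromatin was read at their annotated starts, across the cluster and in the 1 Mb on either side. ATAC-seq, in which the transposase Tn5 cuts and tags accessible DNA, was run on forelimb and hindlimb cells of E11.5 embryos. The study concerns the long non-coding RNA Maenli and the limb gene engrailed-1. It has 2 libraries from embryos with a stop cassette insertion, titled 3xpA, and 2 from wild-type embryos, and both groups carry the strain label c57bl6.J X 129S6.sv. In both groups limb cells were separated with trypsin and fixed before transposition. The labels give neither the position of the insertion nor the number of embryos behind a library.

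Hox genes encode homeodomain transcription factors that pattern the body axis and the limbs, and within a cluster they tend to be switched on in the order in which they lie. In the limb, HoxD transcription is known to draw on enhancers in a pair of gene-poor landscapes: the telomeric one, beside Hoxd1, is known for enhancers active in the early and proximal limb, and the centromeric one, beside Evx2, for enhancers active in the digits. Polycomb proteins keep Hox genes silent in cells that do not use them.

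The data are lists of summits, the single base at which a called peak is highest, each with a score that behaves as −log10 of a q-value. A score depends on depth, which is unknown here, so each was turned into a percentile within its own list, from the weakest summit to the strongest. Summits of the 4 lists whose extensions of 250 bp on each side overlapped were merged into regions. The sequences below are the plus strand of mouse build NCBIM37 (mm9) around summits that the results turn on. Capitals mark the stretch from the lowest to the highest position of the lists' strongest summits. The first, chr2:74505889-74506120, lies before the start of Hoxd13, and its capitals hold the summits of 3 lists; that of stop cassette replicate 1 was at 74506318. The second, chr2:74511111-74511266, lies between Hoxd13 and Hoxd12, and the third, chr2:74600954-74601036, ends at the base before the start of Hoxd1; in both, the capitals hold the summits of all 4 lists.
Hoxd13 upstream: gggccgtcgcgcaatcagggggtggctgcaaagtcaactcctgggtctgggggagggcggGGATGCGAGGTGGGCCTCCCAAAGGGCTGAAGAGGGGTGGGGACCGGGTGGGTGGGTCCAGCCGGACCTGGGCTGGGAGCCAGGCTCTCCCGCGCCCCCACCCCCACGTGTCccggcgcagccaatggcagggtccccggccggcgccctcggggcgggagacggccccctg
between Hoxd13 and Hoxd12: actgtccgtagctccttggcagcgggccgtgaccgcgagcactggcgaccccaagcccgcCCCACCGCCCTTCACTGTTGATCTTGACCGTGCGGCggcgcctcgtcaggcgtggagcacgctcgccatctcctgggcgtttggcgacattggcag
Hoxd1 upstream: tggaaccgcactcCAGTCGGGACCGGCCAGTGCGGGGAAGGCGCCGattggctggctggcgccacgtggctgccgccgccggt

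All 3 of these sequences are rich in G and C, with a GC content of 75.4%, 68.6% and 74.7% in the order shown. They hold 18, 18 and 11 CpG dinucleotides. No capital stretch overlaps an annotated exon. The lower-case ends were cut where an exon was met, as at both ends of the Hoxd1 sequence, so they hold none by construction. The next 3 lie in the flanks, more than 1 kb from any annotated start. They were chosen after their values were seen, except that the last met the rule for regions particular to 1 genotype. The centromeric one, chr2:74219065-74219222, and the telomeric one, chr2:75428337-75428489, come from the distal region with the highest mean percentile on each side among those held by all 4 lists. The last, chr2:74324529-74324655, comes from a centromeric region that both stop cassette lists held and that was absent from both wild-type ones. The capitals hold the summits of 3, 4 and 2 lists; in the centromeric region that of stop cassette replicate 2 was at 74219350.
centromeric distal: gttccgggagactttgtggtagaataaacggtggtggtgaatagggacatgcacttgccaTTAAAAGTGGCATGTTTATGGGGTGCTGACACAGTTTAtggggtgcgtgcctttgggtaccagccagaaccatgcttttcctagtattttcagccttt
telomeric distal: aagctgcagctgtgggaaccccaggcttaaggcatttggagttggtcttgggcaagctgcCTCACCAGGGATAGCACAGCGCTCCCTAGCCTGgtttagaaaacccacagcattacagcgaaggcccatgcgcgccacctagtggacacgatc
stop cassette-specific: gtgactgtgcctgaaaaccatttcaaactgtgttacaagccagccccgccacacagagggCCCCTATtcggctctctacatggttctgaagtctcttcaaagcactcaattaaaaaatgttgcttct

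These flank sequences had a GC content of 47.5%, 57.5% and 46.5%, below that of the sequences inside the cluster.

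The stop cassette lists held 79083 and 107827 summits in replicates 1 and 2, and the wild-type lists 51701 and 68471, so counts are given beside shares of the list. Of 8 limb mesenchyme markers, 4 had a summit at a start in all 4 lists (Prrx1, Twist1, Msx1 and Pitx1), and Tbx5, the forelimb gene, had none in any. Among markers of other cell types, a summit in all 4 lists was found at 1 of 5 for surface ectoderm, 0 of 3 for muscle, 1 of 4 for endothelium, 1 of 3 matched for blood and 2 of 3 matched for neural cells. The 3 liver markers had none in any list. Over all protein-coding genes, 57.5% had a summit in all 4 lists and 34.5% in none. Of all genes with a summit in all 4 lists, 41.2% had both stop cassette percentiles above both wild-type ones and 4.34% had them below. Of the 9 such markers, 3 had them above (Gata1, Kdr and Tubb3) and 1 below (Epcam). The widest was Gata1, a gene of the red blood cell lineage, at 74.5 and 56.4 in the stop cassette lists against 10.4 and 26.0 in the wild-type lists. Klf1, of the same lineage, stood at 84.8 and 67.7 against 22.8 in wild-type replicate 1 and none in replicate 2, and Ptprc had none in any list. The part of these differences in the HoxD values was not tested. In bulk tissue, fewer cells with an open site and a site less often open per cell cannot be told apart. Nothing in the labels says that replicates came from separate embryos or cultures, and peak names in the wild-type lists carry 1 shared replicate number with sub-numbers, so p-values measure the spread between these libraries, which may be technical.

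Summits lay at the starts of most HoxD genes, but low in the lists. A summit within 1 kb of an annotated start was present for 6 and 9 of the 10 genes in stop cassette replicates 1 and 2, and for 7 and 7 in wild-type replicates 1 and 2. Over all protein-coding genes the share was 61.5%, 64.4%, 59% and 61.5% in the same order. Hoxd13, Hoxd11, Hoxd9, Hoxd8 and Hoxd1 had one in all 4 lists, which was so for 57.5% of all genes, and Evx2 in none, as for 34.5% of all genes. The median percentile of the strongest summit, over the members with one, was 26.9, 44.4, 27.2 and 52.3. The same median over all genes with a summit was 90.0, 92.6, 85.5 and 88.6, so HoxD starts ranked far below the typical start that had a summit in every library. The low rank was not particular to HoxD. In the same order, the median was 43.1, 62.6, 38.3 and 50.2 for HoxA with Evx1. For HoxC it was 40.4, 59.5, 25.6 and 42.9. HoxD was below HoxA except in wild-type replicate 2, and below HoxC in the stop cassette lists only. HoxB, with a summit at few or no starts, was also below the median over all genes wherever it had one.

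**Figure D1:**
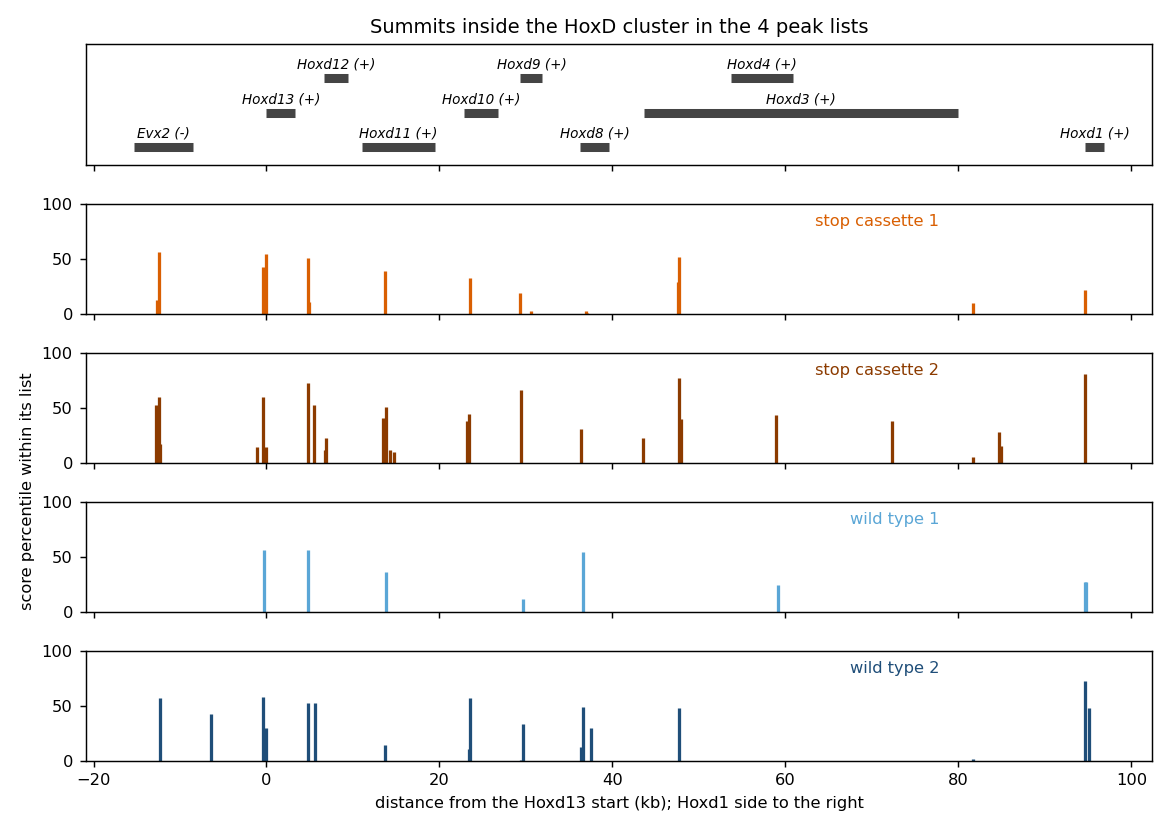
Summits across the HoxD cluster in each of the 4 libraries: the x axis is distance in kb from the Hoxd13 start, each stick is 1 summit and its height is the percentile of the score within that list, with the genes drawn as bars. The stop cassette replicate 2 list holds 28 summits and the wild-type replicate 1 list 8, and no summit in any list passes a percentile of 80.9.

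Hoxd13, which takes part in digit formation, had the smallest spread of percentiles over the full lists among members with a summit in all 4. Its strongest summit stood at a percentile of 54.8 and 59.5 in the stop cassette lists and 56.6 and 57.9 in the wild-type lists. The values spanned less than 5 percentile points and the groups overlapped; the mean was 57.1 ± 3.29 for stop cassette and 57.2 ± 0.931 for wild type (SD, n = 2 each). This depended on the list: at equal list length, 51701 summits each, the values were 30.9 and 15.5 against 56.6 and 44.3, and above a stricter score, 5.83, the median of the 4 lists pooled, they were 18.2 and 19.9 against 3.04 and 10.4, so the genotypes separated in opposite directions. The gene, ENSMUSG00000001819.4, spans chr2:74506367-74509656 on the plus strand. Relative to its start, with minus for upstream, the strongest summits lay at -49, -397, -307 and -418 bp.

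Hoxd12, the next gene, had a summit in the second replicate of each genotype and in neither first replicate: 22.6 for stop cassette and 52.3 for wild type. These are separate sites, at 308 and -977 bp from the start at 74512986, the second just inside the 1 kb limit. The region of the second, chr2:74511639-74512259, was held by both second replicates, at 52.8 for stop cassette and 52.3 for wild type; the stop cassette summit lay just outside the limit. The gene, ENSMUSG00000001823.4, spans chr2:74512986-74515763.

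Hoxd11, which acts with Hoxa11 in forming the forearm bones, stood at 39.1 and 50.5 in the stop cassette lists and 36.5 and 14.6 in the wild-type lists. Both stop cassette values were above both wild-type values, with means of 44.8 ± 8.09 and 25.5 ± 15.5 (SD, n = 2 each), a pattern shared by 41.2% of all genes with a summit in all 4 lists. At equal list length it kept a summit in the first replicates only, at 6.78 for stop cassette and 36.5 for wild type, and the direction turned. Stop cassette replicate 2 held 5 summits within 1 kb of its starts and each other list 1. Its 3 annotated starts lie between 74517449 and 74520489, and the strongest summit of each list was 13 to 94 bp after the one at 74520056; the gene, ENSMUSG00000042499.10, spans chr2:74517449-74525798.

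Hoxd10 had a summit in 3 lists, at 32.3 and 44.4 for stop cassette and 57.5 for wild-type replicate 2. All 3 lay 685 to 729 bp after the start of the gene, ENSMUSG00000050368.3, which spans chr2:74529147-74533163. Wild-type replicate 1, the shortest list, held none.

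Hoxd9, ENSMUSG00000043342.8 at chr2:74535737-74538265, varied more between replicates than between genotypes, with 18.7 and 66.4 in the stop cassette lists and 11.6 and 33.4 in the wild-type lists. The means were 42.5 ± 33.7 and 22.5 ± 15.4 (SD, n = 2 each). The groups overlapped, and the second replicate was the higher of each pair, by 47.6 and 21.8 percentile points. Relative to the start, the strongest summits lay at -20 and 14 bp in the stop cassette lists and at 292 and 284 bp in the wild-type lists. The percentiles of the genotypes were thus read at different positions.

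Hoxd8, ENSMUSG00000027102.4 at chr2:74542672-74545990, was the member with the opposite split to Hoxd11. Its percentiles were 2.32 and 30.3 in the stop cassette lists and 54.5 and 48.8 in the wild-type lists. Both stop cassette values were below both wild-type values, with means of 16.3 ± 19.8 and 51.7 ± 4.05 (SD, n = 2 each), a difference of -35.3 percentile points. The strongest summits were at 74543254 and 74542707 in the stop cassette lists and at 74542993 and 74542961 in the wild-type lists. The split thus compares summits at different positions, near different annotated starts of the gene. Of all 12860 genes with a summit in all 4 lists, 41.2% had both stop cassette percentiles above both wild-type ones and 4.34% had them below. Hoxd11 is the 1 member of the first kind and Hoxd8 the 1 member of the second, out of 5 members that could be placed. With 2 libraries against 2, the exact permutation test cannot give a p below 0.333.

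Hoxd4, ENSMUSG00000042464.6 at chr2:74560035-74567217, lies inside the longer Hoxd3 gene, ENSMUSG00000079277.2 at chr2:74549986-74586331, and they shared a summit. It was at 43.6 in stop cassette replicate 2 and 24.8 in wild-type replicate 1, and the other libraries had none. It lay 108 and 342 bp after a Hoxd4 start at 74565131, and 454 and 688 bp after a Hoxd3 start at 74564785, so it cannot be assigned to one of them. Stop cassette replicate 2 also had summits at 22.2 and 37.8, near the Hoxd3 starts at 74549986 and 74577676.

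Hoxd1, at the telomeric end (ENSMUSG00000042448.3, chr2:74601037-74603200), split by replicate and not by genotype. Its strongest summit stood at 21.6 and 80.9 in the stop cassette lists and at 27.2 and 72.7 in the wild-type lists. The second replicate exceeded the first by 59.4 and 45.5 percentile points, while the genotype means were 51.2 ± 42.0 and 49.9 ± 32.2 (SD, n = 2 each). The strongest summits lay at -70 to -38 bp from the start at 74601037, within the 33 capital letters printed for Hoxd1. The annotated start nearest to the middle of that region is of another gene, 6720416L17Rik, at -33 bp. The summits thus lie between the starts of Hoxd1 and 6720416L17Rik and cannot be assigned to one of them. The low value in stop cassette replicate 1 is a score shared by 3847 summits of that list, 4.86% of it, and the percentile is the mean rank of those ties.

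Evx2, ENSMUSG00000001815.8, is the 1 member on the minus strand, at chr2:74491049-74497918, and had no summit within 1 kb of any of its 3 annotated starts. The nearest summit was 3557 and 3459 bp away in the stop cassette lists and 8142 and 2086 bp away in the wild-type lists. A region overlapping an Evx2 coding exon, chr2:74493382-74494301, was held by 3 lists at 56.1, 59.8 and 57.7, and wild-type replicate 1 lacked it. In windows of 501 bp, the ratio of observed to expected CpG was 0.750 to 0.949 at the Evx2 starts and 0.973 at the Hoxd13 start. Taking each gene's start with the highest ratio, the median was 0.918 over the 10 members and 0.670 over 22367 genes. Hoxd12 (0.546), Hoxd10 (0.614), Hoxd9 (0.582) and Hoxd4 (0.433) were below that of all genes, and the other members above it. Taking the highest ratio favours genes with several annotated starts, such as Hoxd3.

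**Figure D2:**
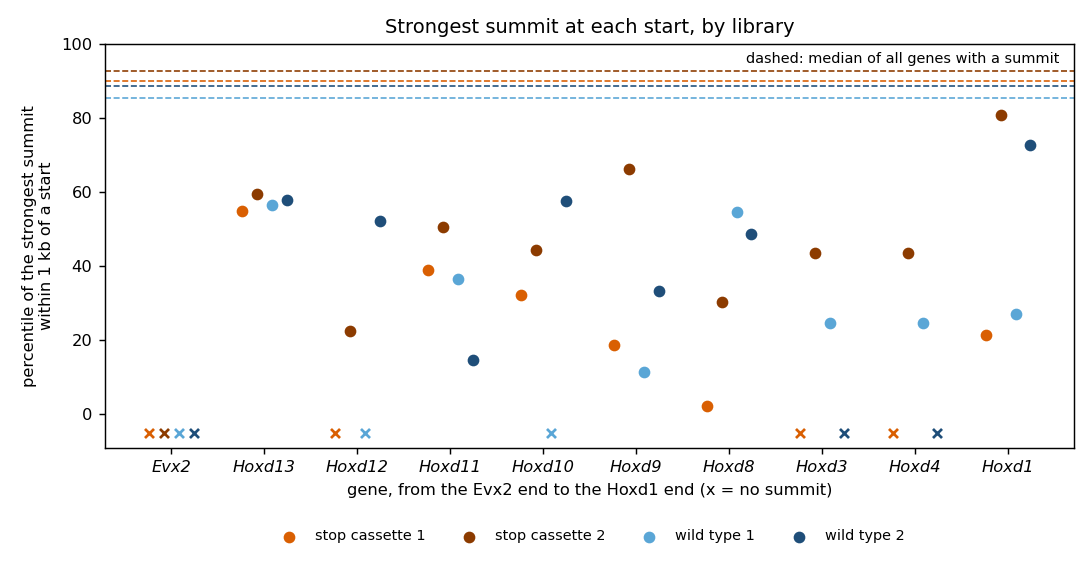
Percentile of the strongest summit within 1 kb of a start for each of the 10 genes, ordered from Evx2 to Hoxd1, with 1 point per library, crosses for no summit and dashed lines for the median over all genes with one. Hoxd13 points lie between 54.8 and 59.5, Hoxd1 points fall into a low pair of first replicates and a high pair of second replicates, and Evx2 has none.

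Ordered by the mean over the lists that held a summit, Hoxd13 (57.2 ± 1.98, SD, n = 4) came first, then Hoxd1 (50.6 ± 30.5, n = 4), Hoxd10 (44.7 ± 12.6, n = 3), Hoxd12 (37.5, n = 2), Hoxd11 (35.2 ± 15.0, n = 4), Hoxd3 and Hoxd4 (34.2, n = 2), Hoxd8 (34.0 ± 23.5, n = 4) and Hoxd9 (32.5 ± 24.3, n = 4). Each difference between neighbours was smaller than the SD of at least 1 of the pair, so the order itself is not resolved. The means also rest on different libraries: Hoxd12 on the second replicates, Hoxd10 on all but wild-type replicate 1, and Hoxd3 and Hoxd4 on stop cassette replicate 2 and wild-type replicate 1. By Euclidean distance over the 4 lists, the genes outside the Hox clusters with start percentiles most like Hoxd13 were Qpct (3.89), Gpr4 (4.64) and Gad2 (5.75). Those most like Hoxd9 were Gpr25 (4.29), Gli1 (10.9) and Adam12 (11.2).

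The number of HoxD starts with a summit averaged 7.5 ± 2.12 in the stop cassette libraries and 7 ± 0 in wild type (SD, n = 2 in each group; exact permutation p = 1, two-sided; adjusted p = 1 over 4 counts). The difference of 0.5 was smaller than the spread. When every list was reduced to its 51701 highest-scoring summits, the counts became 2 and 3 for stop cassette against 7 and 6 for wild type, a difference of -4 (exact permutation p = 0.333, the smallest possible). The share over all genes then was 57.7%, 59.7%, 59% and 59.4%. Hoxd13 kept a summit in all 4 lists, while Hoxd8 kept one in the wild-type lists only, at 54.5 and 32.2. The stop cassette lists lose more summits in this step, from the bottom of the list. In the full lists the median percentile of summits inside the cluster was 25.3 and 37.7 for stop cassette and 31.8 and 45.5 for wild type. The part of either in the turned difference was not tested.

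Inside the cluster, chr2:74491049-74603200, the stop cassette lists held 16 and 28 summits and the wild-type lists 8 and 18. These were 0.0202% (Wilson 95% interval 0.0125% to 0.0329%) and 0.0260% (0.0180% to 0.0375%) of the stop cassette lists, and 0.0155% (0.00784% to 0.0305%) and 0.0263% (0.0166% to 0.0416%) of the wild-type lists; intervals cover counting error only. The ranges overlap between genotypes. The means were 22 ± 8.49 and 13 ± 7.07 summits (SD, n = 2 each; exact permutation p = 0.667, adjusted p = 0.889 over the 4 counts). At equal list length the counts were 6 and 8 against 8 and 13, so the direction of the difference turned. The difference of 9 summits was 3 without stop cassette replicate 2, 15 without its replicate 1, 4 without wild-type replicate 1 and 14 without its replicate 2.

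The summits formed 19 regions. All 4 lists shared 6 of them, 31.6% against 32% of 74669 regions genome-wide. None was held by both lists of one genotype and neither of the other, where the genome-wide share was 10% for the stop cassette and 0.313% for wild type. Stop cassette replicate 2, the longest list, was the sole holder of 5. By annotation of the median summit position alone, 3 regions were placed in a coding exon, 4 in a UTR, 2 in a non-coding exon, 4 in an intron and 6 as intergenic. Overlap of whole regions was not counted. The Hoxd13 and Hoxd1 regions are among the intergenic ones, though each spans the start of its gene. Of the 6 regions in all 4 lists, 5 lay within 1 kb of a start.

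The exception among those 6 was the intergenic region between Hoxd13 and Hoxd12, chr2:74510921-74511541, centred at -1797 bp from the Hoxd12 start. It stood at 50.9 and 72.5 in the stop cassette lists and 56.7 and 52.7 in the wild-type lists, with a mean of 58.2, the highest in the cluster among regions held by all 4 lists. The groups overlapped. The next were the Hoxd13 region, chr2:74505699-74506568, and the Hoxd1 region, chr2:74600717-74601676, with the values given above. A region at the start of the non-coding gene 1700109F18Rik, within the Hoxd3 gene body, chr2:74553681-74554555, reached 51.9, 77.6 and 48.3 in 3 lists and was absent from wild-type replicate 1; it was named after its values were seen.

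Regions in the cluster were richer in G, C and CpG than the rest, with a median GC content of 58.5% and a CpG ratio of 0.734 against 49.3% and 0.284 over all regions. Among regions in all 4 lists genome-wide these were 57.9% and 0.590. As a description of letters only, 501 bp windows were searched on both strands for TTTACGA and CCAATAAA (words bound by HOX13 proteins), TGATTTAT (Hox with Pbx), TGGGTGGTC (Gli) and the CTCF core consensus. Over all 74585 windows the shares were 1.45%, 2.46%, 2.40%, 0.504% and 5.92%. Of the 19 cluster windows, 1 held TGATTTAT and none held any of the others. Of 42 telomeric windows, 2 held TTTACGA, 4 held CCAATAAA and 3 the CTCF core, and of 32 centromeric windows 1 held CCAATAAA and 1 the CTCF core. The strongest telomeric distal region held CCAATAAA at chr2:75428550-75428557 and the CTCF core at chr2:75428470-75428481, the latter within the sequence printed above.

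Over 1 Mb, more summits lay on the telomeric side than on the centromeric side in every library, which did not hold over 0.5 Mb. The telomeric 1 Mb, beside Hoxd1, held 40 and 63 summits in the stop cassette lists and 25 and 36 in the wild-type lists. The centromeric 1 Mb, beside Evx2, held 28 and 49 and 18 and 31. The telomeric excess of 12, 14, 7 and 5 averaged 9.5 ± 4.20 (SD, n = 4; exact sign-flip permutation p = 0.125, two-sided, the smallest that 4 libraries allow). Over the nearest 0.5 Mb the telomeric counts were 17 and 21 for stop cassette and 9 and 12 for wild type, against centromeric counts of 9 and 26 and of 5 and 13. The centromeric side was then the higher in both second replicates, and the mean excess was 1.5 (exact sign-flip permutation p = 0.75). Among genome windows of 1 Mb, 67.1% to 77.0% held fewer summits than the telomeric flank and 52.4% to 64.9% fewer than the centromeric one.

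Between genotypes, the telomeric flank differed by 21 summits (51.5 ± 16.3 against 30.5 ± 7.78; exact permutation p = 0.333, adjusted p = 0.889 over the 4 counts) and the centromeric flank by 14 (38.5 ± 14.8 against 24.5 ± 9.19; exact permutation p = 0.667, adjusted p = 0.889; SD, n = 2 each). As shares of the list, the telomeric flank held 0.0506% and 0.0584% for stop cassette and 0.0484% and 0.0526% for wild type, which overlap. At equal list length the telomeric counts were 24 and 23 against 25 and 25, and the centromeric difference was 0. Without stop cassette replicate 2, the telomeric difference was 9.5 and the centromeric 3.5, and without its replicate 1 they were 32.5 and 24.5. Without wild-type replicate 1 they were 15.5 and 7.5, and without its replicate 2 they were 26.5 and 20.5.

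**Figure D3:**
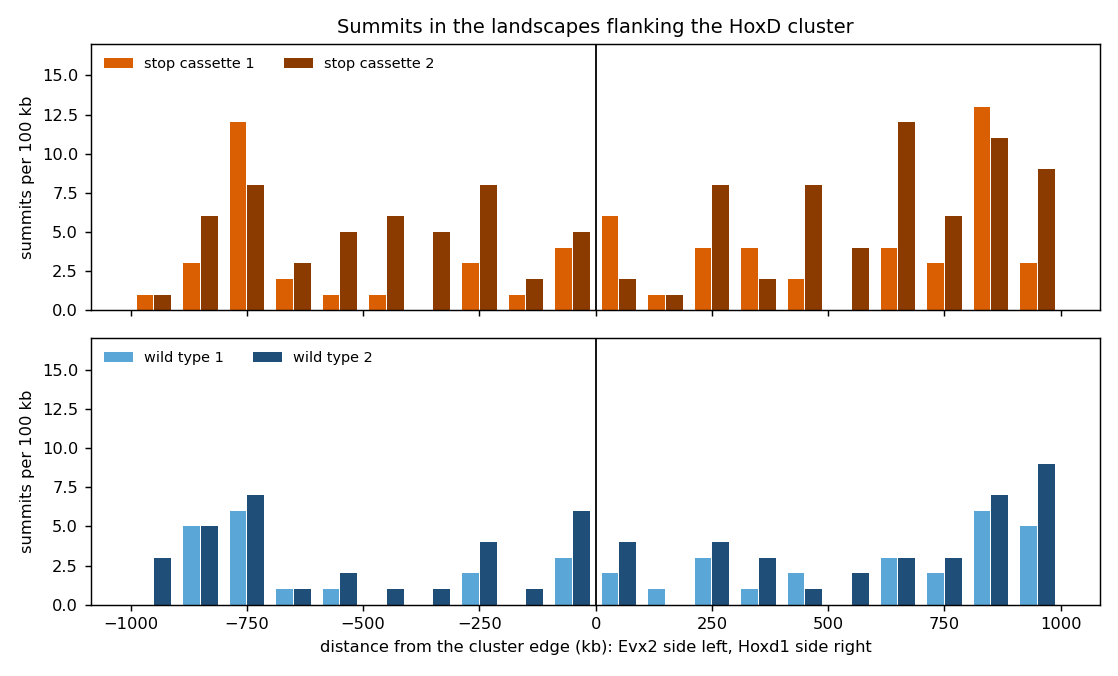
Summits per 100 kb in the 1 Mb on each side of the HoxD cluster, stop cassette libraries above and wild-type libraries below; the x axis is distance in kb from the nearest cluster edge, negative on the Evx2 side. Summits are sparse 300 to 700 kb from the Evx2 edge except in stop cassette replicate 2, and 700 to 800 kb from it each list holds its highest count on that side, 12, 8, 6 and 7, tied with 200 to 300 kb in stop cassette replicate 2.

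The high end of both flanks lay at gene starts. All 7 protein-coding genes with a start there, 4 centromeric and 3 telomeric, had a summit in all 4 lists. Lnp, the nearest on the Evx2 side at 73.557 kb from the edge, stood at 99.8 and 97.5 in the stop cassette lists and 89.6 and 97.7 in the wild-type lists. Mtx2, the nearest on the Hoxd1 side at 60.66 kb, stood at 90.2 and 94.98 and at 85.4 and 94.4. Both were above every HoxD start in each list. The regions with the highest mean percentile in all 4 lists were at the starts of Lnp (chr2:74416113-74417621, 96.2), Atf2 (chr2:73729660-73731549, 96.1) and Atp5g3 (chr2:73748425-73749956, 90.9) on one side. On the other they were at those of Hnrnpa3 (chr2:75496539-75498167, 96.7), Nfe2l2 (chr2:75541288-75542949, 92.5) and Mtx2 (chr2:74663359-74664641, 91.3).

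Away from starts the sides differed in how many regions were shared. Over 1 kb from any start, 9 of 36 telomeric regions (25%) and 4 of 27 centromeric regions (14.8%) were held by all 4 lists; this difference was not tested. The strongest of the telomeric ones, chr2:75427442-75428679, 825.197 kb from the edge, stood at 76.2 and 78.9 in the stop cassette lists and 46.6 and 57.6 in the wild-type lists. The strongest of the centromeric ones, chr2:74218641-74219600, 271.915 kb from the edge, stood at 49.1 and 78.6 and at 46.6 and 60.9. In wild-type replicate 1 both regions had the same tied score, at 46.6. The telomeric one had both stop cassette values above both wild-type values, as did 38.9% of all 23894 regions held by all 4 lists, and the centromeric one overlapped. No region held by all 4 lists lay between 300 and 700 kb on the Evx2 side.

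Each flank held 3 regions present in both stop cassette lists and absent from both wild-type ones, and none of the reverse kind. That was 3 of 32 and 3 of 42 regions, beside the genome-wide 10%. One of the 6 kept this pattern at equal list length: chr2:74324339-74324845, intergenic and 166.457 kb from the Evx2 edge, at 49.1 and 69.7. Its 2 strongest summits, 1 per list, bound the 7 capital letters printed above. The 49.1, in stop cassette replicate 1, is a tied score, at the same percentile as the strongest centromeric distal region. Leaving out 1 library, so that a single list stands for its genotype, gave 31 and 15 such regions without stop cassette replicates 1 and 2, and 6 and 17 without wild-type replicates 1 and 2.

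Counting all summits, the HoxD cluster had more per 10 kb than HoxA and HoxB in every library. Summits over 1 kb from any start made up the smaller part of the mean difference. Its density was 1.43 and 2.50 in the stop cassette lists and 0.713 and 1.60 in the wild-type lists, against a genome mean of 0.195 to 0.407. It exceeded HoxA by 0.471 ± 0.215 and HoxB by 1.16 ± 0.423 (SD, n = 4; exact sign-flip permutation p = 0.125 each, adjusted p = 0.1875 over 3 clusters). HoxC was lower in 3 of 4 libraries, by 0.394 ± 0.443 on average (exact permutation p = 0.25, adjusted p = 0.25), and higher in wild-type replicate 1. Counting only summits outside 1 kb of starts, still per 10 kb of the whole cluster, HoxD exceeded HoxA by 0.120 (exact sign-flip permutation p = 0.375). Its difference from HoxB was then 0.0325 (exact sign-flip permutation p = 0.875) and that from HoxC -0.141 (exact sign-flip permutation p = 0.25). Annotated starts numbered 34 in 112.152 kb of HoxD and 58 in 163.007 kb of HoxA. They numbered 32 in 173.941 kb of HoxB and 18 in 115.741 kb of HoxC. The sequence left out around starts was not measured, so densities of the remaining sequence were not compared. Counting all summits at equal list length, the difference from HoxA was 0.228 (exact permutation p = 0.25) and that from HoxB 0.622 (exact permutation p = 0.125). HoxB had a summit at 0 to 3 of its 10 genes and HoxC at 3 to 6 of 9. HoxA with Evx1 had 4 to 9 of 12, and Evx1, like Evx2, had none in any list.

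**Figure D4:**
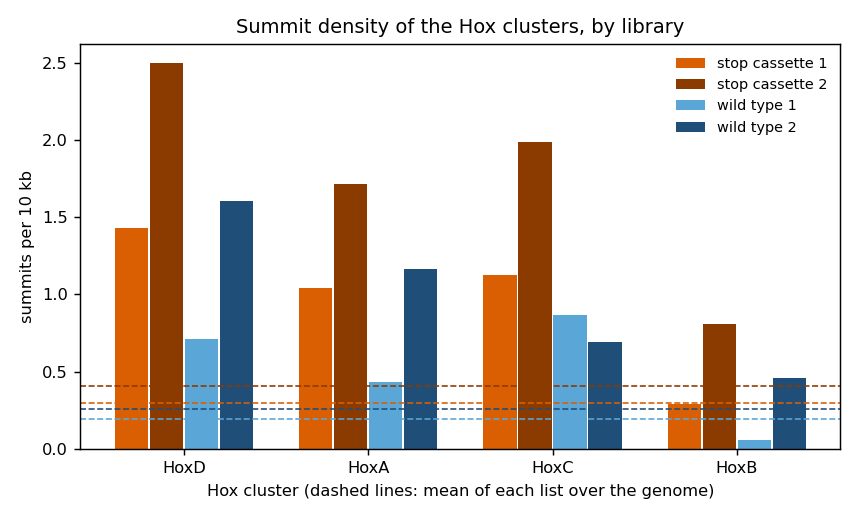
Summits per 10 kb in the 4 Hox clusters, with 1 bar per library and dashed lines for the mean density of each list over the genome. HoxD averages 1.56, above HoxC at 1.17, HoxA at 1.09 and HoxB at 0.402, and the libraries of a cluster spread widely.

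Of 29 other genes of the HoxD limb programme, 23 had a summit in all 4 lists, beside 57.5% of all genes, and Hoxa11 and Evx1 had none. The median percentile over those with a summit was 70.6 and 78.0 in the stop cassette lists and 72.2 and 79.4 in the wild-type lists, between that of the HoxD starts and that of all genes. The list behind these medians includes Ctcf, at 87.4, 89.9, 90.3 and 95.6, and the Polycomb genes given below. Gli3, the Hedgehog pathway repressor that limits posterior Hox transcription, stood at 79.0, 92.5, 85.2 and 91.1. Shh, the posterior signal, and Fgf8, the signal of the limb's ectodermal ridge, each had a summit in stop cassette replicate 2 alone, at 28.5 and 30.1. Hoxa13, the HoxA counterpart of Hoxd13, stood at 26.7, 78.0, 40.1 and 58.2, a wider range than Hoxd13. The Polycomb genes Ezh2, Eed, Suz12 and Rnf2 all stood above 89 in every list, and Ring1, another, stood at 77.5, 74.0, 63.8 and 76.1. Both stop cassette values were above both wild-type values at 3 of the 23 and below at 2, beside the 41.2% and 4.34% of all genes.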

How the data were processed

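ATAC-seq libraries were read as the deposited peak lists, 1 per library, so peaks were called per library. The build is mm9, and Bowtie2 2.2.6 and Picard are named in the submitters' processing notes; the peak caller is not given in the sources used here. Each row of a deposited list is a summit of 1 bp with a score read as −log10 of a q-value, because its lowest value is near that of q = 0.05. Peak names record that duplicate and mitochondrial reads were taken out and a mapping quality of 30; a shift of reads for Tn5 is not given in the sources used here. No read counts were given, so depth is unknown. Scores were used as percentiles within a list. Summits were placed with GENCODE M1 on NCBIM37. Groups come from sample titles. Genotypes were compared with exact permutation tests over libraries (Python 3.11.15, scipy 1.17.1); adjustment was Benjamini-Hochberg. The counting was tested on simulated lists. Alternatives were equal list length, a stricter score, other distances and extensions, and leaving out each library.

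The members, gene lists and tests were chosen with earlier results of these data known. Named were all 10 members, the 3 highest regions held by all 4 lists in the cluster and in each flank, and regions particular to a genotype that remained so at equal list length; Lnp and Mtx2 were named as nearest flank genes and the likeness genes by distance.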

Additional observations from a re-analysis of the deposited data

How the results depend on the processing

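Of 99 alternative values for 12 results, 9 turned direction, 9 counts of regions particular to a genotype moved, and 1 difference fell to 0. Only 59 have a p, none below 0.125; the design cannot reach 0.05, so these p-values say nothing about stability. At equal list length the stop cassette minus wild type difference became -4 for HoxD starts with a summit, -3.5 for cluster summits, 0 for centromeric and -1.5 for telomeric summits; regions particular to the stop cassette became 2 and to wild type 1, from 6 and 0. By construction this step removes the weakest summits, and most from the longest lists. The part of that in these changes was not tested. Above the stricter score the difference in median percentile became 15.7 for starts (from -4.12) and 11.4 for the cluster (from -7.16); only 1, 4, 1 and 3 starts then had a summit, so 2 of the 4 start medians are a single gene; the cause was not tested. Counting only summits outside 1 kb of starts, per 10 kb of the whole cluster, the difference from HoxC was -0.141. With 100 bp extensions the particular regions numbered 12 and 1. The cause was not tested in either case. Leaving out 1 library gave -1 to 2 for starts (-1 without stop cassette replicate 2), -16.7 to 8.45 for their median percentile (8.45 without wild-type replicate 2, 4.60 without stop cassette replicate 1), and 6 to 31 and 0 to 5 particular regions. It gave -14.0 to -0.326 for the cluster median percentile, 3 to 15 for cluster summits, 3.5 to 24.5 for centromeric and 9.5 to 32.5 for telomeric summits. With replicate number as a replicate block the differences were unchanged (0.5 for starts, 9 for cluster summits, exact permutation p = 1 and 0.5, the smallest possible being 0.5); same-numbered libraries deviated together with a correlation of 0.181 over 23894 regions, and share only a number. Depth is unknown, so a missing summit says only that none was called.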
